A study of Mus musculus with 9 samples.

Results

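The 9 mouse brain libraries of the series were divided by their level of Slc6a3, the dopamine transporter, and 3 of the 9 formed the dopamine-transporter-high side. A library belonged to this side when Slc6a3 reached 50 CPM, its count scaled to the total count of the library. The members were control 2, control 3 and MPTP+PF4 2. The other 6 libraries, under 50 CPM, were control 1, MPTP 1 to 3, MPTP+PF4 1 and MPTP+PF4 3. The treatment label was not used for the division.

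All tissue was labelled mesencephalon and came from C57BL/6 mice, with 3 mice in each of 3 groups. Control mice received saline, another group received intraperitoneal MPTP for 7 days, and the last group received this MPTP course together with intravenous PF4 every 3 days. MPTP is a neurotoxin whose metabolite is taken up by dopaminergic neurons through the dopamine transporter, and PF4 (platelet factor 4) is a chemokine stored in platelets. The transporter-high side therefore held 2 of 3 controls, 0 of 3 MPTP libraries and 1 of 3 MPTP+PF4 libraries. Library totals lay between 32216850 and 36039211 counts, so that 3 counts, taken as the limit of detection in 1 library, corresponded to 0.0832 to 0.0931 CPM. This limit covers counting error only. Mitochondrially encoded transcripts made up 9.14% to 14.2% of the counts.

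The dopaminergic neurons of the ventral midbrain synthesise dopamine with tyrosine hydroxylase and Ddc, load it into vesicles through Slc18a2 and take it back up through Slc6a3. Their cell bodies lie in the substantia nigra and ventral tegmental area, and much of their output reaches the striatum of the forebrain. Striatal projection neurons there carry the receptors Drd1 or Drd2, and Adora2a marks the Drd2-bearing class. En1 and Gata3 are transcription factors of the midbrain that are not used by striatal neurons, so the marker genes separate the source of the dopamine projection from its target.

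The 5 marker genes were examined first. Slc6a3 (ENSMUSG00000021609, chromosome 13, 73536747 to 73578672, GRCm38 as for all gene positions here) had levels of 552 CPM in control 2, 529 CPM in control 3 and 106 CPM in MPTP+PF4 2. In the rest, its level was 0.393 CPM in control 1, 0.057, 1.03 and 0.120 CPM in MPTP 1 to 3, and 0.328 and 0.372 CPM in MPTP+PF4 1 and 3. The library just inside the threshold was thus MPTP+PF4 2 and the library just outside was MPTP 2, and no library lay near 50 CPM. Since Slc6a3 chose the members, and all other genes come from the same contrast, the differences between the sides are given as descriptions with no test.

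En1 (ENSMUSG00000058665, chromosome 1, 120602418 to 120607992), which patterns the midbrain and hindbrain, was at 6.95, 13.8 and 3.93 CPM in control 2, control 3 and MPTP+PF4 2, and did not exceed 0.179 CPM in the other 6. Gata3 (ENSMUSG00000015619, chromosome 2, 9857078 to 9890034), a selector of midbrain GABAergic neurons, was at 10.8, 7.33 and 1.58 CPM in these 3 libraries and did not exceed 0.09 CPM in the other 6. Both factors were near or under the limit of detection in all 6 libraries of the other side. Drd1 (ENSMUSG00000021478, chromosome 13, 54051183 to 54055705), the receptor of direct-pathway striatal neurons, was at 3.88, 4.83 and 8.03 CPM in control 2, control 3 and MPTP+PF4 2. Its levels in the other libraries were 159 CPM in control 1, 177, 48.01 and 312 CPM in MPTP 1 to 3, and 212 and 369 CPM in MPTP+PF4 1 and 3. Adora2a (ENSMUSG00000020178, chromosome 10, 75316877 to 75334784) was at 1.80, 2.80 and 1.37 CPM in the transporter-high libraries, against 157 CPM in control 1, 143, 27.3 and 297 CPM in MPTP 1 to 3, and 214 and 237 CPM in MPTP+PF4 1 and 3. The 4 markers other than Slc6a3 separated the sides without overlap. MPTP 2 had the lowest Drd1 and Adora2a of its side, and other regional transcripts described further on also set it apart, so the name striatum-like describes MPTP 2 less well than the other 5. In these bulk samples, fewer cells of a type and less RNA per cell cannot be told apart.

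**Figure D1:**
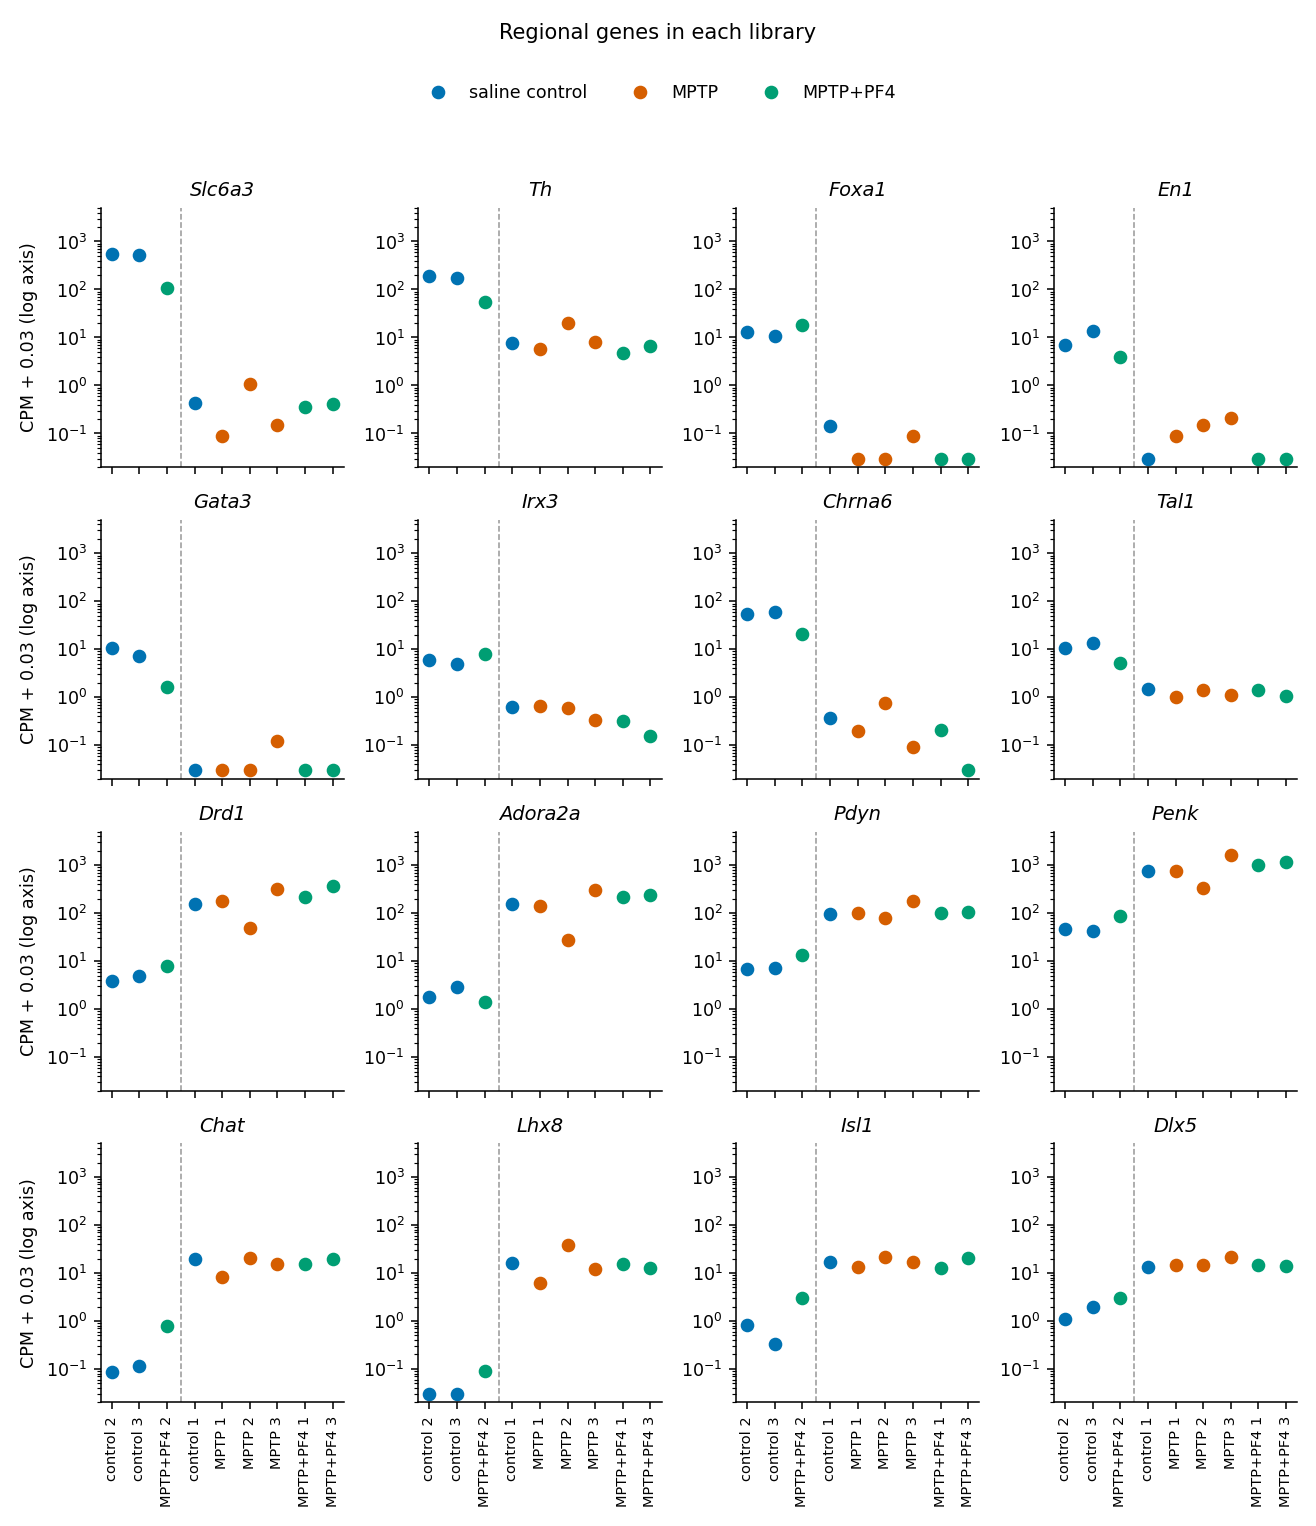
CPM of 16 regional genes in each library, on a log axis with a small constant added so that 0 can be drawn, and with the transporter-high libraries left of the dashed line. The points are single libraries coloured by treatment. Slc6a3 drops from 106 CPM or more on the left to 1.03 CPM or less on the right, while Drd1 goes from 8.03 CPM or less to 48.01 CPM or more.

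Across the transcriptome, a gene was called higher or lower when the nearest libraries of both sides stood at least 2 times apart (CPM + 0.1). Among 14786 genes that passed a minimum count in every library, 12 were higher on the transporter-high side (0.0812%) and 65 were lower (0.44%). This filter removes genes that are near 0 on either side, Slc6a3, En1, Gata3 and Chat among them. With a filter that asked for the minimum count in 3 libraries, 53 of 17285 genes were higher (0.307%) and 134 were lower (0.775%). Of the 53 higher genes 10 were loci without a known gene, as were 42 of the 134 lower genes. The median log2 difference between the sides over the 14786 genes was 0.02, and 1560 genes (10.6%) lay higher and 1758 (11.9%) lower with no overlap of any width. Nothing is read from these shares, because the contrast defined the sides. Counts for gene lists below include all listed members, whether or not they passed a filter. Without a filter, 0.252% of 23803 genes were called higher and 0.584% lower.

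Genes of dopamine synthesis and vesicular storage were higher on the transporter-high side. The dopaminergic neuron list held 15 genes, 1 of which, Slc6a3, is higher by the rule that made the sides. Of the other 14 genes, 9 were called higher and 0 lower, with a median log2 difference of 3.43, and 11 passed the filter on all libraries. Over all genes without a filter, 0.252% were called higher and 0.584% lower. The summed level of these 14 was 1677 CPM in control 2, 1559 CPM in control 3 and 832 CPM in MPTP+PF4 2, and 487 to 852 CPM in the other 6, so that MPTP+PF4 2 lay within the range of the other side. Calb1 and Drd2, which ran against the list, made up much of the sum on the other side.

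Th, tyrosine hydroxylase, was at 187, 177 and 53.7 CPM in control 2, control 3 and MPTP+PF4 2. Levels of Th on the other side were 7.495 CPM in control 1, 5.80, 19.5 and 8.16 CPM in MPTP 1 to 3, and 4.80 and 6.58 CPM in MPTP+PF4 1 and 3. Unlike Slc6a3, Th was thus measurable everywhere. Slc18a2, the vesicular monoamine transporter, was at 253, 260 and 79.5 CPM on the transporter-high side and at 13.2 to 23.7 CPM elsewhere. Ddc, the decarboxylase that forms dopamine, was at 184, 186 and 69.9 CPM against 9.99 to 27.9 CPM, with the highest of these in MPTP 2. Gch1, which supplies the cofactor of tyrosine hydroxylase, was at 19.6, 16.6 and 8.001 CPM against 1.26 to 2.26 CPM. Slc18a2 and Ddc, like Th, were low but present in all 6 libraries of the other side, whereas Slc6a3 reached 0.120 CPM or less in 2 of them.

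Slc6a3, Th, Ddc and Slc18a2 were also ranked on the length-corrected scale of the authors' FPKM values. Among them Slc6a3 was the highest in control 2 at 150 FPKM, followed by Th at 96.5 FPKM, Ddc at 88.8 FPKM and Slc18a2 at 62.6 FPKM. In MPTP+PF4 2 their order was different, with Ddc at 34.2 FPKM, Slc6a3 at 29.2 FPKM, Th at 28.1 FPKM and Slc18a2 at 20.0 FPKM. Aldh1a1, of the same list, was above them all, at 177 FPKM in control 2 and 107 FPKM in MPTP+PF4 2. The levels of MPTP+PF4 2 relative to the average of controls 2 and 3 were 19.5% for Slc6a3, 29.5% for Th, 31.0% for Slc18a2, 37.8% for Ddc and 44.2% for Gch1. The dopaminergic genes were therefore not lower in MPTP+PF4 2 by a common factor. With 1 library of this kind, these percentages have no replicate error.

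Receptor genes of dopaminergic neurons followed. Chrna6, a nicotinic receptor subunit concentrated in catecholaminergic neurons, was at 54.9, 60.5 and 20.5 CPM in control 2, control 3 and MPTP+PF4 2, whereas the other 6 had 0 to 0.738 CPM. Its partner subunit Chrnb3 was at 37.8, 29.7 and 8.72 CPM against 0.179 to 1.06 CPM. Ret, the signalling receptor of the GDNF family, was at 139, 140 and 97.5 CPM against 6.74 to 43.3 CPM, highest in MPTP 2. Aldh1a1, an aldehyde dehydrogenase of ventral nigral neurons, was at 384, 328 and 208 CPM against 45.3 to 88.7 CPM. Gucy2c, a guanylate cyclase receptor, was at 12.3, 15.2 and 3.42 CPM against 0 to 0.679 CPM.

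Not called were 5 members. Sncg and Ntsr1 lay higher without overlap but by less than 2 times, and Slc10a4 overlapped, with 17.3 CPM in MPTP+PF4 2 and 33.5 CPM in MPTP 2. Drd2, which both dopaminergic and indirect-pathway striatal neurons express, ran the other way at 85.6, 60.9 and 25.4 CPM against 37.0 to 280 CPM, with overlap. Calb1, a calcium-binding protein of ventral tegmental and striatal neurons, was at 86.5, 135 and 201 CPM against 216 to 435 CPM.

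Transcription factors of the dopaminergic lineage showed the same division but another order within the transporter-high side. Of 10 members 6 were called higher and 0 lower, with a median log2 difference of 4.91, and 4 passed the filter on all libraries. The shares called over all genes without a filter were 0.252% higher and 0.584% lower. Foxa2, a floor plate factor upstream of the dopaminergic programme, was at 9.33, 5.24 and 3.18 CPM in control 2, control 3 and MPTP+PF4 2 and listed at 0 in the other 6, so that its level was at least 34.2-fold higher against the limit of 3 counts per library. The related Foxa1 was at 13.0, 10.7 and 17.8 CPM against 0 to 0.112 CPM. Lmx1b was at 8.17, 5.30 and 11.1 CPM against 0 to 0.179 CPM, and Lmx1a at 6.69, 4.16 and 13.4 CPM against 0.06 to 1.77 CPM. Foxa1, Lmx1a and Lmx1b were thus higher in MPTP+PF4 2 than in either control of this side, at 150%, 247% and 164% of their average. Pitx3, which is needed for nigral neurons, had 6.72 CPM in control 2, 5.02 CPM in control 3 and 0.714 CPM in MPTP+PF4 2, which is 12.2% of their average, against 0 to 0.177 CPM elsewhere. Nr4a2, Otx2 and En2 were not called, nor was Sox6, whose 14.3 to 21.5 CPM lay under the 21.9 to 36.2 CPM of the other side. Nr4a2 reached 33.0 CPM in MPTP 3, above the 18.1 and 20.2 CPM of controls 2 and 3.

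The stretches of 250 bases before the start site are shown for Slc6a3 and Th, genes of the higher side, and for both RefSeq start sites of Drd1, on the lower side (RefSeq, GRCm38.p6; 11 of the 15 named higher and 9 of the 15 named lower genes had an entry). The letters TGACGTCA (a cyclic AMP response element, its own reverse complement) and GGGCGG or its reverse complement CCGCCC (a GC box) were searched on both strands and are in capitals.
Slc6a3, chr13:73536497-73536746, plus strand: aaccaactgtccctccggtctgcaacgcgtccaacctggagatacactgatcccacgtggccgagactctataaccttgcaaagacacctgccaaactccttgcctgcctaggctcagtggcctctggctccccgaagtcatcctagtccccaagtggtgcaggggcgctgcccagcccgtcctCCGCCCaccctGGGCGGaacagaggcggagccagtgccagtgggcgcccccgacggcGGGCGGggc
Th, chr7:142899996-142900245, minus strand: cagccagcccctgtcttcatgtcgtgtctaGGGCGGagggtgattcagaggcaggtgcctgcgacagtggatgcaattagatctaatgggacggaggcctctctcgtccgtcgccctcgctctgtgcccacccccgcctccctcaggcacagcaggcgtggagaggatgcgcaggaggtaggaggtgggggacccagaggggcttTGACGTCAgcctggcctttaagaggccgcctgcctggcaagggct
Drd1, first start site, chr13:54055659-54055908, minus strand: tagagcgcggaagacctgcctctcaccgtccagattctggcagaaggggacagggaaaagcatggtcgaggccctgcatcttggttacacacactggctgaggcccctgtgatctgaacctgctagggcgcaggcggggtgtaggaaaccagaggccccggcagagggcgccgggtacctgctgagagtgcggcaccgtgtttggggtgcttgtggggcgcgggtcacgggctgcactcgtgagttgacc
Drd1, second start site, chr13:54054781-54055030, minus strand: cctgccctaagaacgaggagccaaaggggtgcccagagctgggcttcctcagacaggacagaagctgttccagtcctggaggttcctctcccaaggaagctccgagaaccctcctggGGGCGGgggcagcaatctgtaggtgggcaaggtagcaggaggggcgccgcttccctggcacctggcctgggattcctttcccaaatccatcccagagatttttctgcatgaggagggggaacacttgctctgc
The window of Slc6a3 held 3 GC boxes and that of Th 1 GC box and 1 cyclic AMP response element, which began 45 bases before the start. Of the Drd1 windows, the first held 0 and the second 1 GC box. Over all 32851 promoter windows of this length, 32.7% held a GC box and 1.55% a cyclic AMP response element. These matches describe the letters only and were not related to the levels.

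Factors of other midbrain neurons were also higher. Of 12 GABAergic and dorsal midbrain factors 6 were called higher and 0 lower, against 0.252% and 0.584% of all genes without a filter. Of these 12, 9 lay higher without overlap, as did 10.6% of all genes past the filter. Only 3 of the 12 passed that filter, so these shares come from unlike sets of genes. The median log2 difference of these factors was 3.47. Their summed level was 79.4, 60.5 and 41.2 CPM in control 2, control 3 and MPTP+PF4 2 against 9.03 to 22.8 CPM, the highest of the other side again in MPTP 2. Tal1, which acts with Gata factors in midbrain GABAergic precursors, was at 10.7, 13.3 and 5.09 CPM against 1.00 to 1.43 CPM. Pou4f1, a marker of the red nucleus and of the habenula, was at 7.82, 5.36 and 0.922 CPM against 0 to 0.084 CPM. Nkx6-1 was at 9.24, 2.86 and 2.80 CPM against 0 to 0.365 CPM. Pax5 and Pax7, of the midbrain patterning programme, were at 0.222 to 2.64 CPM against 0 to 0.062 CPM. Lhx1 and Lhx5 overlapped, with 4.10 and 6.23 CPM in MPTP 2.

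Of 14 posterior patterning factors 3 were called higher, all of the Irx family, which sets territories in the diencephalon, midbrain and hindbrain. Of the 14, 0 passed the filter on all libraries. Over all genes without a filter, 0.252% were called higher. Irx2 was at 20.4, 11.5 and 5.41 CPM against 0.239 to 1.56 CPM, Irx3 at 6.00, 4.97 and 7.97 CPM against 0.124 to 0.628 CPM, and Irx5 at 3.01, 3.16 and 4.61 CPM against 0.124 to 0.797 CPM. The 10 Hox genes on this list, which mark the hindbrain and spinal cord, were at 0 to 0.29 CPM in every library. Thus hindbrain Hox transcripts were near or under the limit of detection on both sides.

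Cholinergic genes went in both directions. Chat, the enzyme that makes acetylcholine, was at 0.058, 0.083 and 0.773 CPM in control 2, control 3 and MPTP+PF4 2. Levels of Chat on the other side were 19.5 CPM in control 1, 8.34, 20.5 and 15.7 CPM in MPTP 1 to 3, and 15.5 and 19.8 CPM in MPTP+PF4 1 and 3. Slc5a7, the choline transporter, was at 1.48, 1.42 and 3.72 CPM against 32.2 to 99.98 CPM, and the vesicular transporter Slc18a3 at 0.055 to 0.297 CPM against 4.06 to 15.4 CPM. Isl1, a factor of cholinergic and direct-pathway striatal neurons, was at 0.782, 0.305 and 2.97 CPM against 12.8 to 21.9 CPM. Phox2a, a factor of cranial motor nuclei, was listed at 0 in all 9 libraries. Calca and Prph, a neuropeptide and a neurofilament of motor and sensory neurons, were called higher on the transporter-high side, at 10.5, 6.30 and 4.73 CPM against 0.31 to 1.45 CPM and at 4.23, 3.77 and 2.498 CPM against 0.15 to 0.413 CPM. In all, 4 of 9 members were called lower and 2 higher, against 0.584% and 0.252% of all genes without a filter.

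Striatal projection neuron genes formed the largest group of named lower genes. Of 20 members 14 were called lower and 0 higher, and 18 lay lower without overlap, as did 11.9% of all genes past the filter. The median log2 difference of these members was -3.997. Their summed level was 431, 510 and 674 CPM in control 2, control 3 and MPTP+PF4 2. In the other libraries the sum was 5931 CPM in control 1, 6277, 1926 and 12188 CPM in MPTP 1 to 3, and 8105 and 11297 CPM in MPTP+PF4 1 and 3. MPTP 2 was the lowest of its side and still above the transporter-high libraries.

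Penk, the enkephalin precursor of indirect-pathway neurons, was at 47.6, 43.4 and 87.0 CPM against 341 to 1611 CPM. Pdyn, the dynorphin precursor of direct-pathway neurons, was at 6.83, 7.08 and 13.7 CPM against 79.2 to 180.2 CPM. Genes of both striatal output pathways therefore lay on the same side. Ppp1r1b, the dopamine-regulated phosphatase inhibitor DARPP-32, was at 30.1, 30.9 and 54.5 CPM against 198 to 1882 CPM. Gpr6, a receptor of indirect-pathway neurons, was at 0.463, 0.832 and 1.93 CPM against 13.2 to 92.5 CPM. Pde10a, the striatal phosphodiesterase, was at 9.06, 18.5 and 49.9 CPM against 175 to 1757 CPM. By FPKM, Penk was the highest of these genes in control 1 at 663 FPKM, above Ppp1r1b at 455 FPKM, Adora2a at 59.4 FPKM and Drd1 at 43.1 FPKM. The other 6 members were not called. Of these Foxp1 and Ebf1 overlapped, Foxp1 being at 11.3 CPM in MPTP 2 against 25.8 to 40.9 CPM on the transporter-high side, and Tac1, Rasd2, Gpr149 and Ptpn7 lay lower by less than 2 times between the nearest libraries.

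Of 20 telencephalic transcription factors 5 were lower and 0 higher, and 10 lay lower without overlap, as did 11.9% of all genes past the filter. Of the 20, 15 passed this filter. The median log2 difference of these factors was -1.74. Lhx8, a factor of the cholinergic and pallidal lineages of the ventral forebrain, was at 0, 0 and 0.059 CPM in control 2, control 3 and MPTP+PF4 2 against 6.25 to 37.9 CPM; the highest of the former stands for 2 counts. Dlx5 was at 1.04, 1.97 and 2.97 CPM against 13.1 to 21.5 CPM, and Dlx6 at 4.41 to 5.62 CPM against 22.0 to 38.7 CPM. These factors belong to the ventral forebrain, as do Six3 and Sp9, which were also lower. Factors of the cerebral cortex did not follow: Emx1 was at 1.62, 2.66 and 1.87 CPM against 0.093 to 2.33 CPM, and Neurod6 at 20.3, 26.3 and 11.2 CPM against 0.974 to 40.0 CPM. These cortical transcripts were thus present on both sides. Meis2, a homeobox factor of striatal neurons that was not on this list, was at 13.6, 18.5 and 40.2 CPM against 190.3 to 551 CPM.

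Among the 15 named lower genes, Zfp708 and a second gene model called Sept2 had an all-or-none pattern. Zfp708, a zinc finger gene, was listed at 0 in the 3 transporter-high libraries and lay between 5.26 and 7.51 CPM in the other 6. Its level did not follow the graded levels of the striatal genes, MPTP 2 being at 5.34 CPM. The second Sept2 model was listed at 0 in these and ranged from 7.08 to 38.1 CPM elsewhere, while the other gene model with this symbol was at 89.9 to 96.8 CPM against 54.3 to 79.5 CPM. Reads of overlapping models can be split between them in counting, so both patterns are uncertain. Losses of this kind also occurred in single libraries: control 2 had at most 3 counts for 6 genes that were at 3 CPM or more in all the other libraries, among them Irs1 at 0 against 13.3 to 27.4 CPM. Scn2a was at 0.637 CPM in control 2 against 86.0 to 279 CPM. Their part in the pattern of Zfp708 was not tested. Cd4 was at 0.333 to 0.753 CPM against 3.66 to 86.5 CPM, lowest in MPTP 2, and Gdnf, a growth factor for dopaminergic neurons, was at 0.178 to 0.869 CPM against 2.24 to 7.12 CPM.

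The 3 transporter-high libraries did not form a uniform set. For each library, genes with a gap of 2 times or more were chosen without that library and without MPTP+PF4 2 and MPTP 2, and its position was measured between 0, the median of the other side, and 1, the level of controls 2 and 3, on the log2 scale. MPTP+PF4 2 had a median position of 0.327 over 677 higher genes and 0.480 over 924 lower genes, and was nearer to the transporter-high side for 32.1% and 48.1% of them. MPTP 2 had median positions of 0.196 and 0.265. Control 3, set against control 2 alone, had 0.697 and 0.654, and control 1 had 0.167 and 0.153. The other 4 libraries lay between -0.294 and 0.099. On these genes MPTP+PF4 2 was therefore intermediate, while the Slc6a3 threshold placed it on the high side. Its genes were chosen by controls 2 and 3, so they also hold differences particular to these saline controls. Among such differences are those of ribosomal and short transcripts described below, and their part in the positions was not tested. With MPTP+PF4 2 left out, 336 genes were higher and 399 lower under the filter on all libraries, against 12 and 65 with it.

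**Figure D2:**
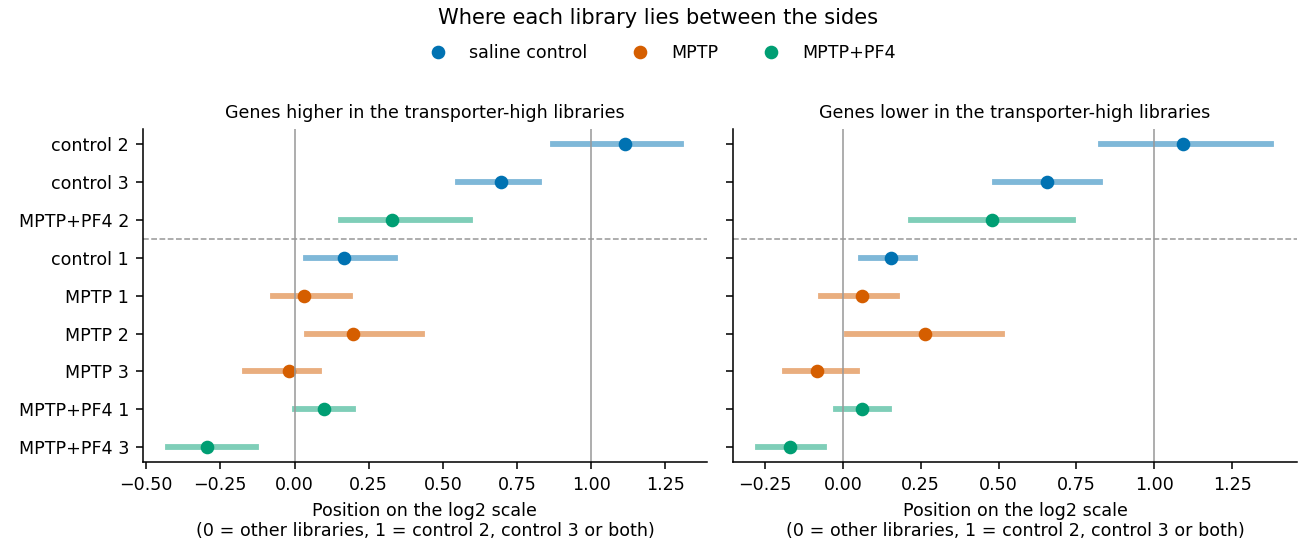
Position of each library between the sides, over genes chosen without that library and without MPTP+PF4 2 and MPTP 2. Points are medians over genes, bars run from the lower to the upper quartile, and colours give the treatment. The medians of MPTP+PF4 2 are 0.327 and 0.480, between controls 2 and 3 and the other 6 libraries.

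Hypothalamic transcripts set MPTP+PF4 2 apart further. Pmch, the melanin-concentrating hormone precursor of the lateral hypothalamus, was at 509 CPM in MPTP+PF4 2, at 48.8 CPM in control 1 and at 0.057 to 3.84 CPM in the other 7 libraries. Hcrt, the orexin precursor of the same region, was at 65.1 CPM in MPTP+PF4 2, 2.53 CPM in control 1 and 0 to 0.62 CPM elsewhere. Barhl1, found in the subthalamic and mammillary regions, was at 6.19 CPM in MPTP+PF4 2 against 1.16 CPM in control 2, 0.971 CPM in control 3 and 0 to 0.266 CPM in the other 6. Adcyap1, the PACAP neuropeptide gene, was at 147 CPM in MPTP+PF4 2, whereas the other 8 had 0.404 to 64.0 CPM. Lmx1a, Lmx1b and Foxa1, which were highest in MPTP+PF4 2, are also expressed in the subthalamic and mammillary territories. The hypothalamic list as a whole was not divided by the threshold, with 0 of 18 members called and a sum of 342, 126 and 678 CPM against 44.2 to 291 CPM.

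MPTP 2 carried another set of hypothalamic and basal forebrain transcripts. Avp, the vasopressin precursor, was at 47.0 CPM in MPTP 2 against 0.055 to 4.97 CPM in the other 8. Oxt, the oxytocin precursor, was at 31.6 CPM against 0 to 1.77 CPM. Trh, the thyrotropin-releasing hormone precursor, was at 51.6 CPM against 0.376 to 12.3 CPM, and Gal, the galanin precursor, at 25.8 CPM against 0.657 to 4.19 CPM. These hormones are made in anterior hypothalamic nuclei such as the paraventricular nucleus. Lhx8 and Lhx6, factors of the ventral forebrain, were also highest in MPTP 2, at 37.9 and 81.4 CPM. Pmch and Hcrt were at 3.84 and 0.62 CPM there, so the transcripts that were highest in MPTP 2 and in MPTP+PF4 2 were different.

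**Figure D3:**
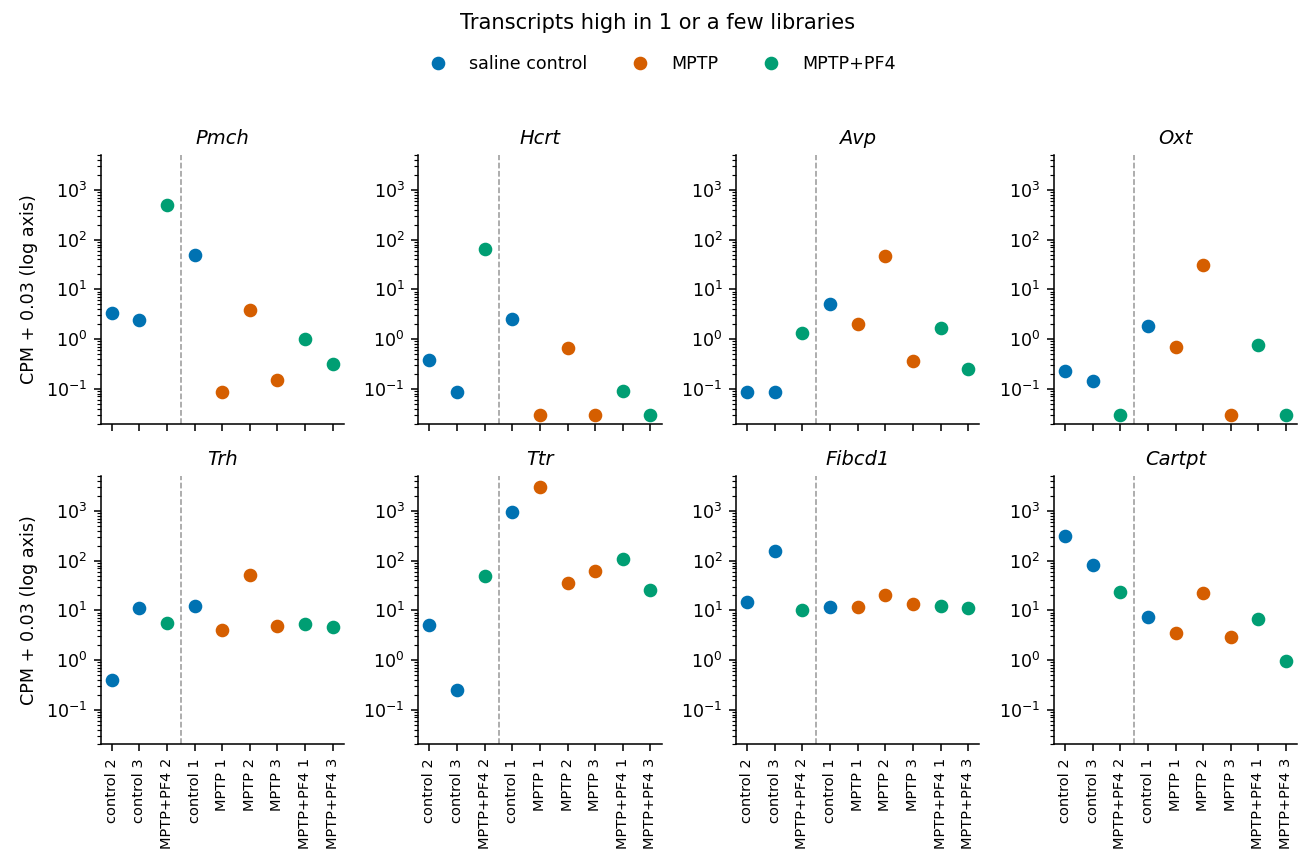
CPM of 8 transcripts in each library on a log axis with a small constant added, with the transporter-high libraries left of the dashed line and colours for the treatment. Pmch and Hcrt peak in MPTP+PF4 2, Avp, Oxt and Trh in MPTP 2, Ttr in control 1 and MPTP 1, Fibcd1 in control 3 and Cartpt in control 2.

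Both controls of the transporter-high side had features of their own. In control 2, haemoglobin transcripts made up 0.628% of the counts against 0.0053% to 0.0792% in the other libraries. Control 2 also had the highest sum of the meningeal fibroblast list, at 304 CPM against 48.3 to 153 CPM in the other 8. Ptgds, a prostaglandin synthase of the meninges and oligodendrocytes, was at 5045 CPM there and at 150.1 to 649 CPM elsewhere. Cartpt, a neuropeptide of the Edinger-Westphal nucleus and hypothalamus, was at 310.1 CPM in control 2, 82.2 CPM in control 3 and 23.2 CPM in MPTP+PF4 2, against 0.931 to 22.3 CPM. Ucn, urocortin, a peptide of the Edinger-Westphal nucleus in the midbrain, was at 15.3, 3.72 and 0.714 CPM on the transporter-high side and 0 to 0.239 CPM on the other. Control 3 instead had Fibcd1, a marker of hippocampal pyramidal neurons, at 154 CPM against 9.99 to 20.5 CPM in the other 8, and Slc17a7, the vesicular glutamate transporter of the cortex and hippocampus, at 527 CPM against 10.004 to 313 CPM. In all, 155 transcripts of at least 5 CPM stood 2 times or more above all other libraries in control 2, 29 in control 3 and 22 in MPTP+PF4 2. On the other side the number was 59 in MPTP 1, 40 in MPTP 2 and 1 in each of the other 4 libraries.

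The choroid plexus, an epithelium of the ventricles that secretes transthyretin, was seen in 2 libraries of the other side. Ttr, the transthyretin gene, had 946 CPM in control 1 and 3037 CPM in MPTP 1, against 25.6 to 107 CPM in the other 4 of that side and 4.95, 0.222 and 49.5 CPM in control 2, control 3 and MPTP+PF4 2. The sum of the choroid plexus list was 30.6, 17.0 and 101 CPM on the transporter-high side and 62.9 to 3390.5 CPM on the other. Of its 12 members 1, Clic6, was called lower.

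Apart from the regional astrocyte list, no gene of the glial and vascular lists met the call rule, although some of their sums separated the sides. Of 10 astrocyte, 15 mature oligodendrocyte, 10 oligodendrocyte precursor, 12 microglial, 10 endothelial, and 10 pericyte and smooth muscle genes, 0 were called in either direction. The mature oligodendrocyte sum was 26426, 24709.5 and 14682 CPM in control 2, control 3 and MPTP+PF4 2 and 8551 to 17179 CPM in the other 6, so that MPTP+PF4 2 lay within the range of the other side. The oligodendrocyte precursor sum was 634 to 779 CPM on the transporter-high side against 443 to 598 CPM. The pericyte and smooth muscle sum was 808, 417 and 417.5 CPM in control 2, control 3 and MPTP+PF4 2 against 281 to 372 CPM. Of the 10 genes on this list 5 lay higher without overlap, as did 10.6% of all genes past the filter. Both sums were thus higher without overlap, while the astrocyte, microglial and endothelial sums overlapped. Pan-neuronal genes were also not called, with sums of 6902 to 8816 CPM against 7939 to 9995 CPM. Of 9 regional astrocyte genes 2 were higher, Irx2 and Irx5, which the posterior patterning list holds as well. Agt, the angiotensinogen gene of non-telencephalic astrocytes, was at 346, 178 and 242 CPM against 30.4 to 169.8 CPM, without overlap but by less than 2 times. Of the remaining lists, the serotonergic list had 1 lower gene, the cation transporter Slc22a3, and the cerebellar list 1 higher gene, Barhl1, while 0 genes were called on the cortical and hippocampal, thalamic, brainstem, meningeal, ependymal, erythrocyte and oxidative phosphorylation lists. Of these lists 3 had sums that were higher without overlap. The sum of the brainstem glycinergic and fast-firing list was 1936, 1513 and 1315 CPM in control 2, control 3 and MPTP+PF4 2 against 378 to 830 CPM. The thalamic sum was 1005 to 1081 CPM against 429 to 794 CPM, and that of nuclear oxidative phosphorylation genes 5151 to 7643 CPM against 3964 to 4892 CPM. Over all 29 lists the sums lay higher without overlap in 10 and lower in 4, and overlapped in 15. The 10 include the dopaminergic neuron list, whose sum holds Slc6a3, the gene that made the sides. Without Slc6a3 that sum overlapped, at 832 CPM in MPTP+PF4 2 and 852 CPM in MPTP 3.

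**Figure D4:**
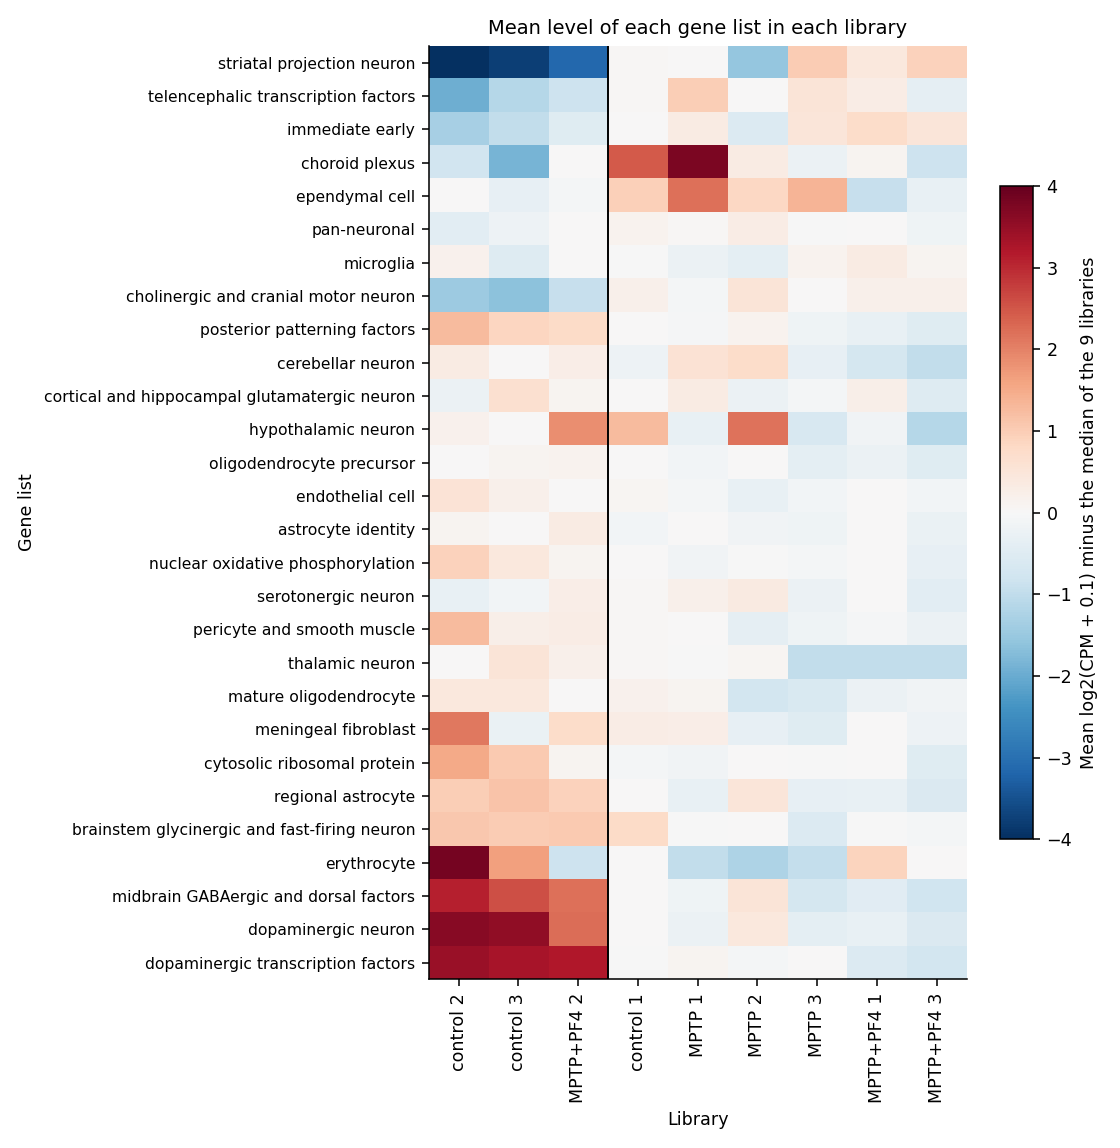
Mean log2(CPM + 0.1) of each gene list in each library minus its median over the 9 libraries, in colour cut at 4 in both directions, with lists sorted by their median difference between the sides and the transporter-high libraries left of the line. The dopaminergic, midbrain and striatal lists change at the line, with median log2 differences of 3.58 (Slc6a3 included), 3.47 and -3.997, while the choroid plexus list is high in control 1 and MPTP 1.

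Ribosomal protein genes differed between the controls of the transporter-high side and all other libraries. The sum of 18 cytosolic ribosomal protein genes reached 12242 CPM in control 2 and 8959 CPM in control 3, against 4585 CPM in MPTP+PF4 2 and 3091 to 4405 CPM in the other 6. Of the 18 genes 0 were called, and 11 lay higher without overlap, as did 10.6% of all genes past the filter. MPTP+PF4 2 was close to the other side. The median level of short transcripts moved with this. Among 482 genes with a longest transcript of up to 1000 bases, the median log2 difference from the gene's median library was 1.09 in control 2 and 0.58 in control 3, against 0.06 in MPTP+PF4 2 and -0.44 to 0 in the other 6. Without the 40 ribosomal protein genes among them it was 1.05 in control 2 and 0.53 in control 3, against 0.05 in MPTP+PF4 2. Among 5540 genes above 4000 bases it was -0.37 in control 2 and -0.14 in control 3, against -0.01 to 0.11 in the others. The GC content of the longest transcript moved with the same controls. From 1685 genes of up to 42% GC to 3888 genes above 54% GC, the median difference went from -0.54 to 0.40 in control 2 and from -0.32 to 0.32 in control 3. In MPTP+PF4 3 it went the other way, from 0.22 to -0.40, and in MPTP+PF4 2 it was 0 in both bins. The part of transcript length and GC content in the ribosomal difference, and in the other differences between the sides, was not tested.

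**Figure D5:**
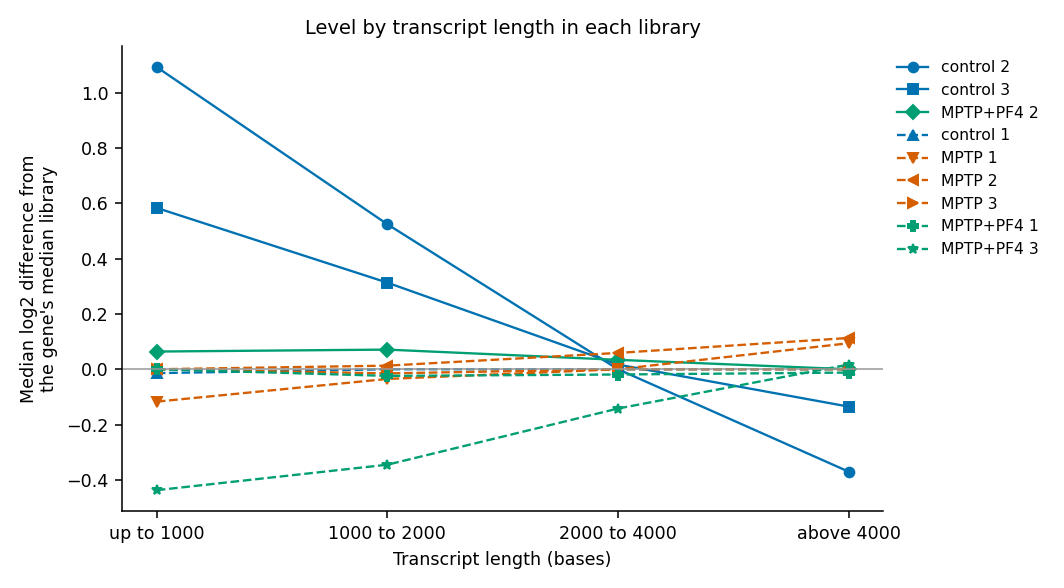
Median log2 difference of each library from each gene's median library, for genes grouped by the length of their longest transcript, with solid lines for the transporter-high libraries and dashed lines for the other 6. Controls 2 and 3 fall from 1.09 and 0.58 for the shortest genes to -0.37 and -0.14 for the longest, and MPTP+PF4 2 stays near 0.

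Of 12 immediate early genes, which neurons induce on firing, 0 were called. Of these 5 lay lower without overlap, as did 11.9% of all genes past the filter, and the median log2 difference of the list was -1.54. Egr1 was at 24.6, 31.9 and 69.0 CPM in control 2, control 3 and MPTP+PF4 2 against 73.8 to 339 CPM, and Arc at 9.09, 15.8 and 20.4 CPM against 28.2 to 89.9 CPM. MPTP 2 had the lowest Egr1 and Arc of its side, as it had for the striatal genes. Fos was at 6.22 to 10.6 CPM against 6.32 to 12.9 CPM, with overlap.

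The labelled treatments were then compared with and without the transporter-high libraries. These comparisons share libraries, and their values are set side by side only. They were tested with edgeR's quasi-likelihood test and Benjamini-Hochberg adjustment at 0.05 over all genes tested. In the fit of all 9 libraries the replicates were the 3 mice of a group. In all 9 libraries, MPTP against control gave 0 of 17285 genes (0%), with 3154 genes at an unadjusted p under 0.05 and 291 genes past the threshold in DESeq2 (1.68%). Slc6a3 had a log2 fold change of -9.89 (SE 3.15, adjusted p = 0.261) there, and Drd1 of 1.67 (SE 1.57, adjusted p = 0.518). Within the 6 libraries under 50 CPM, the MPTP+PF4 group had MPTP+PF4 1 and 3 alone. Control 1 is the lone control there and was assumed to vary like the other groups. The log2 fold changes there were -0.05 (SE 1.46) for Slc6a3 and 0.16 (SE 0.97) for Drd1. These libraries were chosen for low Slc6a3, so its small change among them follows from the rule and is not a result. The same choice bears on lists whose genes went with Slc6a3 or against it. Median log2 fold changes of the lists changed with the libraries too: the dopaminergic neuron list had -3.01 in all 9 libraries and 0.09 in the 6. The midbrain GABAergic list had -3.25 over 10 members tested in all 9 libraries and -0.08 over 7 tested in the 6. Its medians are thus over different members. The striatal list had 1.53 and 0.18, and the ribosomal list -1.09 and 0.01. Over all genes tested the medians were 0.01 and 0.02. Because all 3 MPTP libraries lay on 1 side, a change of a regional gene with MPTP and a difference in regional make-up cannot be told apart in these data.

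Within the 6 libraries 1 of 17985 genes passed for MPTP against control (0.00556%), with 244 genes at an unadjusted p under 0.05 and 13 past the threshold in DESeq2 (0.0723%). This gene was Cxadr, an adhesion receptor, with a log2 fold change of 4.52 (SE 0.28, adjusted p = 0.0328 in edgeR). Its level was 1.24 CPM in control 1 and 29.6, 31.7 and 26.8 CPM in MPTP 1 to 3, but controls 2 and 3, outside this fit, were at 22.0 and 23.7 CPM. On the authors' FPKM scale the difference was smaller, with 1.15 FPKM in control 1, 4.55 to 5.61 FPKM in MPTP 1 to 3, and 3.80 and 3.95 FPKM in controls 2 and 3. The ratio of count to FPKM thus differed in control 1, and the counting that gave it is not given in the sources used here, so the size of the change is uncertain. On both scales the low value belonged to control 1 and not to all controls. The call was lost when MPTP 1, MPTP 3, MPTP+PF4 1 or MPTP+PF4 3 was left out. Gas7, an actin regulator of neurons, did not pass and was at 13.4 CPM in control 1 and 62.5 to 344 CPM in all other libraries, but by FPKM control 1 at 8.06 and control 2 at 8.35 were close.

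MPTP+PF4 against MPTP gave 0 of 17985 genes within the 6 libraries (0%), with 887 genes at an unadjusted p under 0.05 and 102 past the threshold in DESeq2 (0.567%). In all 9 libraries it gave 0 of 17285 (0%), with 347 genes at an unadjusted p under 0.05 and 16 in DESeq2 (0.0926%). Of the 5 smallest p-values within the 6 libraries, 3 belonged to interferon-induced GTPases. Gbp4 was at 14.8, 15.3 and 15.4 CPM in MPTP 1 to 3 and at 2.86 and 3.01 CPM in MPTP+PF4 1 and 3, a log2 fold change of -2.24 (SE 0.20, adjusted p = 0.183 in edgeR). In MPTP+PF4 2, which the fit left out, Gbp4 was at 17.1 CPM, and in controls 1 to 3 it was at 14.1, 13.7 and 11.1 CPM. Tgtp2 was at 19.5, 13.8 and 16.4 CPM in MPTP 1 to 3, 2.21 and 1.68 CPM in MPTP+PF4 1 and 3, and 19.8 CPM in MPTP+PF4 2, with a log2 fold change of -2.97 (SE 0.27, adjusted p = 0.183 in edgeR). Tgtp1, a near-identical paralog that can share reads with Tgtp2, had -2.998 (SE 0.32). Gbp4, Tgtp1 and Tgtp2 were therefore low in MPTP+PF4 1 and 3 alone among the 9 libraries. The remaining genes were the haemoglobin gene Hbb-bs, with a log2 fold change of 2.57 (SE 0.28), and a locus without a known gene. Of 20 striatal genes 18 had a fold change above 0 here and 0 passed, with a median log2 fold change of 0.56. For the choroid plexus list this median was -2.85, with 0 of 12 above 0, and for the hypothalamic list -1.80, with 1 of 16 above 0. The ependymal list had a median of -2.215, with 0 of 10 above 0, and the erythrocyte list 2.408, with 6 of 6 above 0. Ependymal sums were 92.7, 38.5 and 54.4 CPM in MPTP 1 to 3 and 13.8 and 16.2 CPM in MPTP+PF4 1 and 3. MPTP 1 and MPTP 2 were the libraries with the highest Ttr and Avp, so regional transcripts still differed among libraries of 1 side.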

How the data were processed

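RNA from the mesencephalon of 9 C57BL/6 mice was sequenced, 1 library per mouse per the labels. Per the file headers, the table the authors deposited gives raw counts of reads, unnormalized, beside FPKM values scaled by the authors for length and depth. The genome build, per the submitters' processing notes, was mm9. The aligner, counter and strand setting are not given in the sources used here, so antisense and overlapping genes cannot be told apart. Of 29001 lines 10 with broken fields were left out, which left 28991 genes, 6955 of them loci without a known gene. The listed Xist and Tsix were not analysed here.

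CPM values were computed from library totals. The members and gene lists were chosen with earlier results of these data known. Genes named are the 5 markers, the 15 per direction with the largest gap among those with a symbol and at least 5 CPM on the higher side, list members with the largest gaps or against the list, and, in each treatment fit, genes past the threshold or the 5 smallest p-values; of these the text gives those that bear on a comparison, and some are not reported here. Other genes, among them those high in 1 library, were picked with their values in view.

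A gene passed the main filter by edgeR's filterByExpr without groups, which in effect asks for the level in all 9 libraries. Treatment fits used edgeR 4.0.16 in R 4.3.3 (TMM, robust quasi-likelihood, filterByExpr on the groups), and SE was the absolute log2 fold change over the root of the F statistic. DESeq2 1.42.0 was an alternative. Other alternatives were size factors by relative log expression, no count filter, robust estimation off, a replicate block, each library left out, and, for the division, other scalings, FPKM, pseudocounts, gaps and a threshold of 200 CPM. The fits and the gap rule were tested on simulated data, with outcomes not reported here. Simulated libraries for the treatment fit held no regional differences. That test therefore cannot show how the fit behaves where libraries differ in regional make-up. Positions are those of GENCODE in GRCm38, not converted from mm9. Figures were drawn with matplotlib 3.10.9 in Python 3.11.15.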

Additional observations from a re-analysis of the deposited data

How the results depend on the processing

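The count of 12 higher and 65 lower genes stayed within 1.5 times under TMM scaling, DESeq2 size factors, the authors' FPKM and a pseudocount of 1 CPM. Without any gap it was 1560 and 1758, with a gap of 4 times 0 higher and 12 lower, without the count filter 60 and 139, and with a threshold of 200 CPM, which moves MPTP+PF4 2 to the other side, 233 and 212, of which 5 and 14 were among the main calls. Choices added after the data were seen were the filter on 3 libraries, with 53 and 134, and leaving out both MPTP+PF4 2 and MPTP 2, with 522 and 618. With each library left out in turn the counts ranged from 12 to 336 higher and from 66 to 399 lower, the highest without MPTP+PF4 2. Without MPTP 2 they were 54 and 205.

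For MPTP against control in all 9 libraries, edgeR's 0 calls became 291 in DESeq2, stayed at 0 with the side of the division as a covariate (433 genes at an unadjusted p under 0.05), and ranged from 0 to 4577 with each library left out, the highest without control 1. With control 1 left out, the remaining controls all lay on the transporter-high side and the MPTP libraries all on the other. Treatment and side cannot be told apart in that fit. For MPTP+PF4 against MPTP in all 9 libraries there were 16 calls in DESeq2 and 0 without any 1 library. Within the 6 libraries, MPTP against control had 13 calls in DESeq2 and 0 to 3 with a library left out, the highest without MPTP 2; without control 1 no control was left, so that value was not computed. MPTP+PF4 against MPTP within the 6 had 102 calls in DESeq2, 4 without the count filter and 0 to 6 with a library left out, the highest without MPTP 2. The cause of these differences was not tested.

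Whether replicate numbers pair the samples was left undecided. Correlations of deviations between libraries of the same number ran from -0.279 to 0.503, and libraries of different numbers were not compared. With the replicate number as a block within the 6 libraries, which leaves few degrees of freedom, there were 74 calls for MPTP against control and 219 for MPTP+PF4 against MPTP, and 0 in both comparisons over all 9 libraries.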

Other observations

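Genes outside the lists that the division called included Neurog2, a proneural factor, at 1.93 to 2.20 CPM in the transporter-high libraries against 0.06 to 0.59 CPM, and Fgf20, a growth factor of nigral neurons, at 0.521 to 1.55 CPM against 0 to 0.168 CPM. On the lower side Gbx1, a homeobox factor of the basal forebrain, was at 0 to 0.208 CPM against 1.80 to 19.1 CPM, highest in MPTP 2. Slc17a8, the vesicular glutamate transporter of striatal cholinergic interneurons among other cells, was at 0.916 to 2.83 CPM against 7.64 to 29.0 CPM. Unlike these genes, Slc22a3, an organic cation transporter, is on the serotonergic list. It was at 0.811, 0.888 and 2.05 CPM in control 2, control 3 and MPTP+PF4 2 against 4.57 to 10.6 CPM. These values are descriptions of a division made from the same libraries.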
